A study of Mus musculus with 12 samples.

Results

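ABC transporters are membrane proteins that use ATP to move lipids, bile constituents, drugs and metabolites across membranes. In hepatocytes they sit at the canalicular membrane, where they load bile with phospholipid, sterol and conjugates, at the basolateral membrane facing the blood, and in peroxisomes, mitochondria and lysosomes. A few members of the superfamily carry nothing and work on ribosomes or regulate ion channels instead. The genes described here were chosen among those whose RefSeq symbol begins with Abca to Abcg and a number. The array carried 63 probes for the 46 of them that are reported, among 39429 probes in all. Of these 46 genes, 35 had a probe well above background on every array and were tested, within a table of 16916 genes or unmatched identifiers, and 11 were not.

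Liver RNA was measured in Floxed mice, which carry Phgdh flox/flox and no Cre, and in their LKO littermates, which carry Alb+/Cre;Phgdh flox/flox. Both groups therefore have the floxed alleles of Phgdh, the gene of the first enzyme of de novo serine synthesis, and only LKO mice have Cre, which the albumin promoter drives in hepatocytes and which removes exons 4 and 5. Other liver cells keep the gene. The 12 mice were males of 30 weeks on a C57BL/6 background kept on ordinary chow, 6 of each genotype, with 1 mouse per single-color array. The comparison asks how loss of Phgdh in hepatocytes went together with the RNA of the liver's ABC transporters. Slide 1 held Floxed mice 1 to 4, slide 3 held LKO mice 3 to 6, and slide 2 alone held both genotypes, Floxed 5 and 6 with LKO 1 and 2, so a difference between slides and one between genotypes can be told apart only on slide 2. All values are log2 processed intensities after quantile normalization over the 12 arrays, and a difference is LKO minus Floxed on that scale. A gene was called where its unadjusted limma p was below 0.05.

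Between 21614 and 24252 probes per array were well above background, and no spot was saturated. The Phgdh probe lay between 4.81 and 5.50 in Floxed mice (median 5.17) and between 4.23 and 5.30 in LKO mice (median 4.57), a called difference of -0.48 ± 0.177 (SE), but one of -0.05 within slide 2. That probe was dim, with its mean at percentile 8.3 of tested genes. Whether it covers the deleted exons is also not known, so Phgdh is a limited check of the labels. All 6 hepatocyte markers were measured (Alb, Ttr, Apoa1, Cyp2e1, Cps1 and Pck1), and none was called. Among markers of other cells, 2 of 5 for cholangiocytes, 5 of 6 for macrophages, 5 of 5 for stellate cells, 2 of 5 for lymphocytes and 1 of 4 for adipocytes were tested without a call. Called higher in LKO mice were 1 of 5 tested for endothelium (Pecam1, 0.70) and 1 of 3 tested for pancreatic acinar cells (Cel, 0.54). Within slide 2 these differences were 0.04 and 0.27. The other tested endothelial markers had differences from -0.13 to 0.14, and the other tested acinar markers, Cela1 and Ctrb1, -0.30 and 0.16. The mean level of each list overlapped between genotypes. These are whole livers, where fewer cells of a type and less RNA per cell cannot be told apart. The part of cell composition in the values below was not tested.

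Few ABC transporters passed the test for a difference between the genotypes, and their number changed with the processing. Of the 35 tested members, 1 was called, Abcc4, which was higher in LKO mice. That is 2.86% of the members, against 8.35% of all 16916 tested genes called in either direction and 4.92% called higher. With 35 members the count is small, and the gap between these shares was not tested. No member was called lower. No member passed Benjamini-Hochberg adjustment over all tested genes in limma, and neither did any other tested gene, where the smallest adjusted p was 0.132. The Floxed and LKO values of each member overlapped, as they did for all but 0.296% of tested genes. Differences were above 0 for 15 members and below 0 for 20, and their median was -0.04 against -0.003 over all tested genes.

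**Figure D1:**
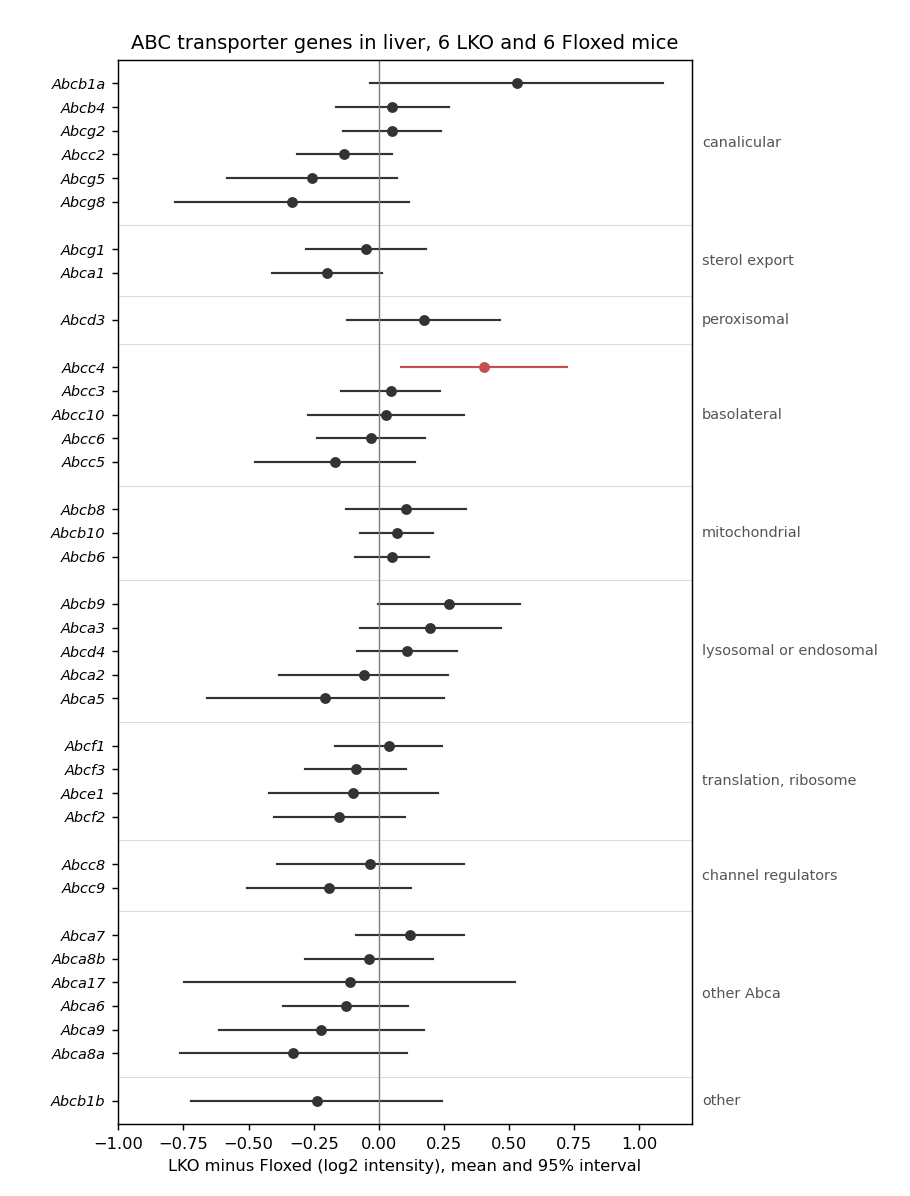
The horizontal axis gives the LKO minus Floxed difference in log2 intensity for the 35 tested members, with points for the difference of means, lines for its 95% interval and members grouped by role. Abcc4, in red, is the single called member, and 34 of the 35 intervals lie between -1 and 1.

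The precision of these differences was moderate. The arms of the 95% intervals ran from 0.14 to 0.64 with a median of 0.27, and the SD between mice of one genotype ran from 0.04 to 0.69. Abcb1a was the one member whose difference exceeded 0.5 in size, and its interval was also the only one to reach beyond 1. For the other 34 members a change of 2-fold or more in either direction lay outside the interval of this fit, which holds no slide term. Blocking on slide as a fixed term, the arms ran from 0.27 to 1.03 with a median of 0.45, and 32 of the 35 intervals lay between -1 and 1. A random block for slide gave a correlation of -0.07 between arrays of one slide, so calls from that fit were not corrected for slide.

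The canalicular members did not move together. All 6 were tested, 3 differences were above 0, 3 were below, none was called, and the median was -0.04. Abcb4, the floppase that presents phosphatidylcholine to bile, ranged from 13.88 to 14.19 in Floxed mice (median 14.08) and from 13.76 to 14.31 in LKO mice (median 14.16). The LKO range enclosed the Floxed range. The difference was 0.05 ± 0.0998 (SE, 95% interval -0.16 to 0.27, adjusted p = 0.972). Abcg2, an efflux pump for drugs, urate and porphyrins, ranged from 12.76 to 12.99 in Floxed mice (median 12.88) and from 12.68 to 13.16 in LKO mice (median 12.95). Again the LKO range was the wider. Its difference was also 0.05 (95% interval -0.14 to 0.24, adjusted p = 0.972).

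Abcc2, the canalicular pump for bilirubin glucuronide and glutathione conjugates, ranged from 11.41 to 11.77 in Floxed mice (median 11.55) and from 11.16 to 11.52 in LKO mice (median 11.48). In 4 of 6 Floxed mice it was above every LKO mouse, and LKO 5 stood well below the rest. The difference was -0.13 ± 0.085 (SE, 95% interval -0.32 to 0.05, adjusted p = 0.797), -0.20 within slide 2 and -0.08 without LKO 5. Abcb1a, one of the 2 mouse genes for the multidrug pump P-glycoprotein, ranged from 4.61 to 6.06 in Floxed mice (median 5.38) and from 5.26 to 6.25 in LKO mice (median 6.14). In 4 of 6 LKO mice it was above every Floxed mouse, and the other 2, LKO 2 and LKO 6, fell inside the Floxed range. The difference of 0.53 ± 0.26 (SE, 95% interval -0.03 to 1.09) was the most positive among the tested members but was not called (adjusted p = 0.636, two-sided exact permutation p = 0.0974), and within slide 2 it was 0.13. It was called when the arrays were scaled to their 75th percentile instead (0.61), with normexp background correction (0.25), with slide as a random block (0.56) and when Floxed 2 (0.66), Floxed 6 (0.65) or LKO 2 (0.66) was left out. Its paralog Abcb1b, a gene outside the naming rule and shown because the encoded pumps are alike, ran the other way, with -0.24 (95% interval -0.72 to 0.24, adjusted p = 0.915). Both probes were dim, with the mean of Abcb1b at percentile 2.9 of tested genes and that of Abcb1a at percentile 17.6. The array was also not shown to keep the 2 paralogs apart, so the split between them is uncertain.

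**Figure D2:**
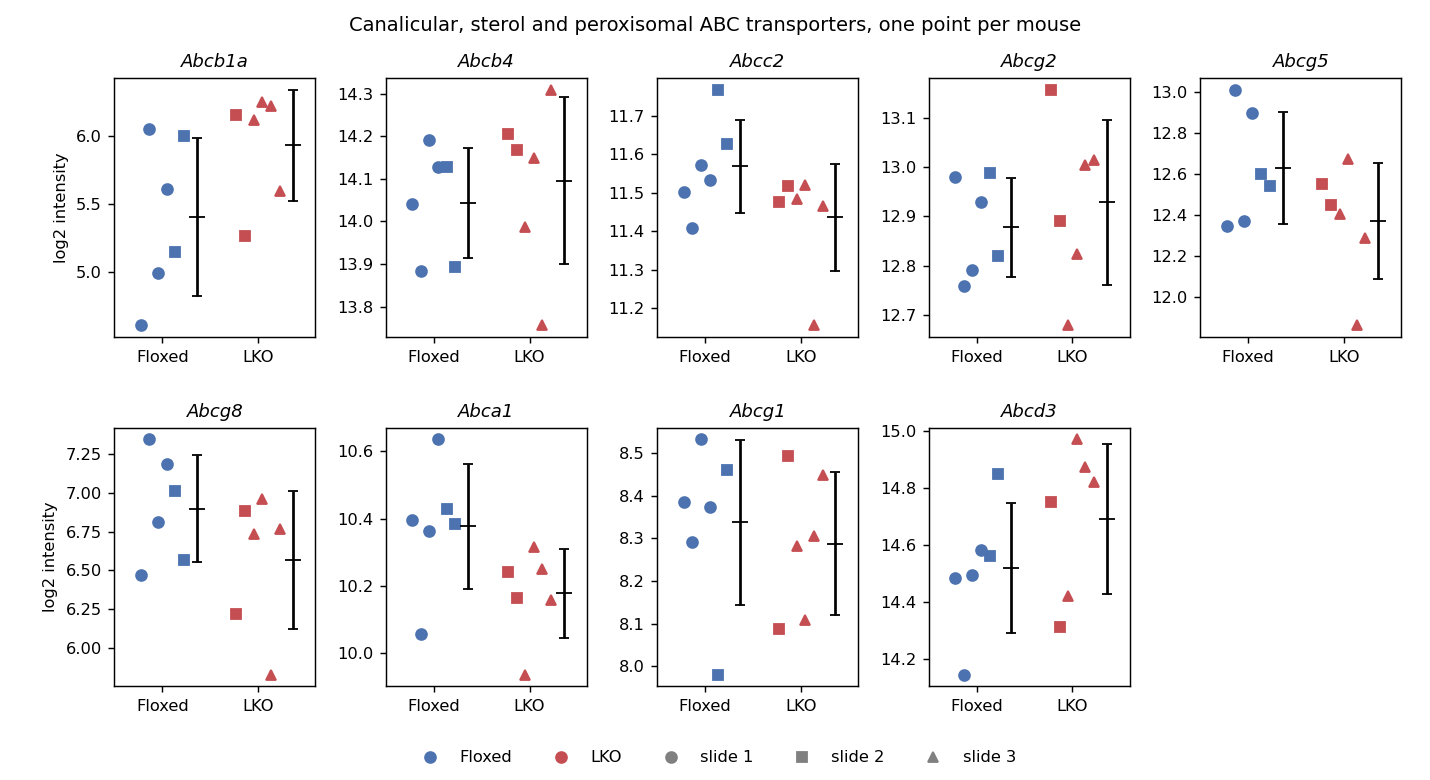
Each panel plots log2 intensity on the vertical axis for 6 Floxed mice (blue) and 6 LKO mice (red), with the symbol for the slide and, beside each group, its mean and SD. In all 9 genes the genotypes overlap, and LKO 5 gives the lowest point of Abcb4, Abcc2, Abcg5 and Abcg8.

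LKO 5 had the lowest value of all 12 mice in 4 of the 6 canalicular genes, Abcb4, Abcc2, Abcg5 and Abcg8, a pattern noticed after the values were seen. In Abcb1a and Abcg2 it did not. Over all 35 members LKO 5 was lowest in 8 and highest in 3, and Floxed 1 was lowest in 6 and highest in 6. The array of LKO 5 also had the lowest 75th percentile of intensity before normalization, 239 against 258 to 473 in the other mice. Its mean hepatocyte marker level was -0.41 relative to the mean of all mice, against -0.14 to 0.23 in the others, and its endothelial marker level of 0.45 was the highest. The hepatocyte level averages 6 genes of unlike spread, with an SD in LKO mice of 0.77 for Pck1 and 0.07 for Alb and Ttr. No LKO mouse had less Alb or Ttr than the lowest Floxed mouse. For the other hepatocyte markers the lowest LKO value was below the lowest Floxed value. These lowest values were 15.26 against 15.44 for Apoa1, 17.29 against 17.67 for Cyp2e1, 12.80 against 12.99 for Cps1 and 12.97 against 13.61 for Pck1. Which LKO mouse was lowest in each is not given here. The part of array intensity and marker levels in the low canalicular values was not tested.

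The canalicular sterol exporters Abcg5 and Abcg8 are described next. Their products form an obligate heterodimer that secretes cholesterol and plant sterols into bile, and the genes lie head to head on chromosome 17. The stretch between their RefSeq starts is short enough to print whole (GRCm38.p6, chr17:84683012-84683120, 109 bases, 45.9% G or C). It is shown because it is the region in front of both genes, and is written 5′ to 3′ on the strand of Abcg8, with capitals for a TATA box, TATAAA, that reads on the strand of Abcg5.
Abcg5–Abcg8 stretch: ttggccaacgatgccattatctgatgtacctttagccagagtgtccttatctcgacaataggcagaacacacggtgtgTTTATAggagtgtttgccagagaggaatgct
The capitals are bases 79 to 84 of the stretch, or 31 to 26 bases before the Abcg8 start. RefSeq lists 2 starts for Abcg8. The one nearer to the Abcg5 start was used, and a transcript from the other would run across this stretch. None of the other motifs searched, a GC box, a CCAAT box, a nuclear receptor core motif and an E-box, was found in it on either strand, which says only that these letters are not there.

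Abcg5 ranged from 12.35 to 13.01 in Floxed mice (median 12.57) and from 11.86 to 12.67 in LKO mice (median 12.43). Abcg8 ranged from 6.47 to 7.34 in Floxed mice (median 6.91) and from 5.83 to 6.96 in LKO mice (median 6.75). For both genes 2 LKO mice lay below every Floxed mouse and the other 4 lay inside the Floxed range. The difference was -0.26 ± 0.151 (SE, 95% interval -0.58 to 0.07, adjusted p = 0.749) for Abcg5 and -0.33 ± 0.208 (SE, 95% interval -0.78 to 0.12, adjusted p = 0.781) for Abcg8, the most negative among the tested members. Neither was called. Without LKO 5 these were -0.15 and -0.19, and within slide 2 they were -0.07 and -0.24.

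Across mice the levels of the 2 partner genes were correlated. After each genotype's mean was removed, their levels had a Pearson r of 0.78 over 12 mice (permutation p = 0.00574 with mice shuffled within genotype, adjusted p = 0.0631 over the 11 pairs of tested members that lie within 300 kb of each other) and a Spearman rho of 0.81 (permutation p = 0.00315, adjusted p = 0.0346). Within genotypes r was 0.88 in Floxed and 0.71 in LKO mice, and with slide removed as well it was 0.81. When the 2 mice farthest from the median of Abcg5, LKO 5 and Floxed 2, were left out, r was 0.57 in the other 10 (permutation p = 0.108), so that its passing the threshold rests on those mice. With single mice left out r ran from 0.63, without LKO 5, to 0.91, without LKO 1. Adjusted p for Pearson's r was 0.342 or above in the other 10 pairs, such as Abcb1b with Abcb4 (r = 0.62). Over all 595 pairs of tested members the median r was 0.02, and 12.4% of the pairs had an r above 0.5.

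**Figure D3:**
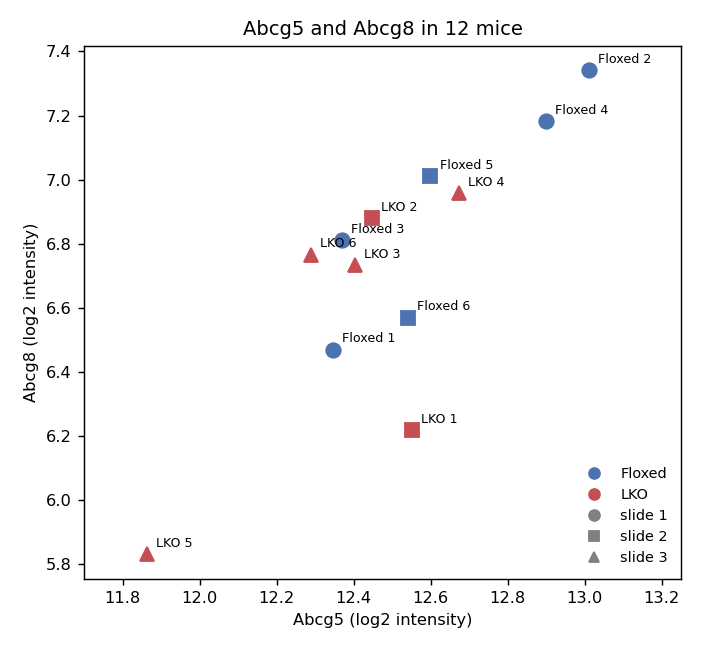
Each point is 1 mouse, with the log2 intensity of Abcg5 on the horizontal and of Abcg8 on the vertical axis, colored by genotype and shaped by slide. Floxed 2 and Floxed 4 are high in both genes, LKO 5 is lowest in both, and LKO 1 has less Abcg8 than mice of like Abcg5 level.

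The sterol exporters, which include that pair, all had differences below 0, but none was called. Of 5 genes in the list 4 were tested and the median difference was -0.23. Abca1, which passes cholesterol and phospholipid to apolipoprotein A-I and so starts HDL formation, ranged from 10.06 to 10.64 in Floxed mice (median 10.39) and from 9.94 to 10.32 in LKO mice (median 10.20). In 5 of 6 Floxed mice it was above every LKO mouse, and Floxed 2 alone fell among the LKO values. The difference was -0.20 ± 0.0978 (SE, 95% interval -0.41 to 0.01, adjusted p = 0.634, two-sided exact permutation p = 0.0541), and it was -0.20 within slide 2. The gene was called at -0.26 without Floxed 2, at -0.23 without LKO 4 and at -0.20 with slide as a random block. Abcg1, which exports sterol to formed HDL particles and is abundant in macrophages, ranged from 7.98 to 8.53 in Floxed mice (median 8.38) and from 8.09 to 8.49 in LKO mice (median 8.29). Its ranges nearly coincided, with a difference of -0.05 (95% interval -0.28 to 0.18, adjusted p = 0.975) that was 0.07 within slide 2. The 5 tested macrophage markers had differences from -0.46 to -0.02, their mean level ran from -0.59 to 1.06 in Floxed and from -0.82 to 0.78 in LKO mice, and their part in the sterol values was not tested. Abcg4, known mainly from brain, was not well above background on any array.

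The peroxisomal members carry fatty acyl-CoAs and related acids into the organelle for beta-oxidation. Abcd3 was tested and not called, and Abcd2 was not tested. Abcd3, the abundant membrane protein PMP70, which takes up branched-chain and dicarboxylic acids, ranged from 14.14 to 14.85 in Floxed mice (median 14.53) and from 14.31 to 14.97 in LKO mice (median 14.78). Overlap was wide, since 2 LKO mice lay above and 1 Floxed mouse lay below the other genotype. The difference was 0.17 ± 0.136 (SE, 95% interval -0.12 to 0.46, adjusted p = 0.873) and turned to -0.17 within slide 2. Abcd2, a carrier of very-long-chain acyl-CoAs, was well above background on 11 of 12 arrays, all but that of LKO 2, and so missed the filter. It ranged from 3.35 to 4.97 in Floxed mice (median 4.17) and from 2.63 to 4.80 in LKO mice (median 3.89), and in a fit without the filter its difference was -0.33 ± 0.379 (SE, adjusted p = 0.826).

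The basolateral group held the one called member. Abcc4 exports bile acids, cyclic nucleotides and conjugates from hepatocytes into blood. It ranged from 6.22 to 6.65 in Floxed mice (median 6.43) and from 6.47 to 7.41 in LKO mice (median 6.83). In 4 of 6 LKO mice it was above every Floxed mouse, LKO 4 was highest, and LKO 2 and LKO 3 lay inside the Floxed range. Abcc4 rose by 0.40 ± 0.147 (SE, 95% interval 0.09 to 0.72), or 1.32-fold (1.06 to 1.65), with an exact two-sided permutation p of 0.0238, a limma p of 0.0166 before and of 0.438 after adjustment. Leaving out any single mouse kept the call, at differences from 0.29 to 0.48, the lowest without LKO 4. With normexp background correction it was called at 0.21. With slide as a random block, which did not correct for slide, it was called at 0.42. With slide as a fixed block, which takes the value from slide 2 alone, the difference was 0.25 (95% interval -0.34 to 0.84) and the call was lost, although slide 2 holds only 2 mice of each genotype. The other 4 tested basolateral members had differences from -0.17 to 0.04 and were not called. Among them Abcc3, another basolateral exporter of conjugates, had one of 0.04 (95% interval -0.14 to 0.23) and is named outside the rule as the counterpart of Abcc4.

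**Figure D4:**
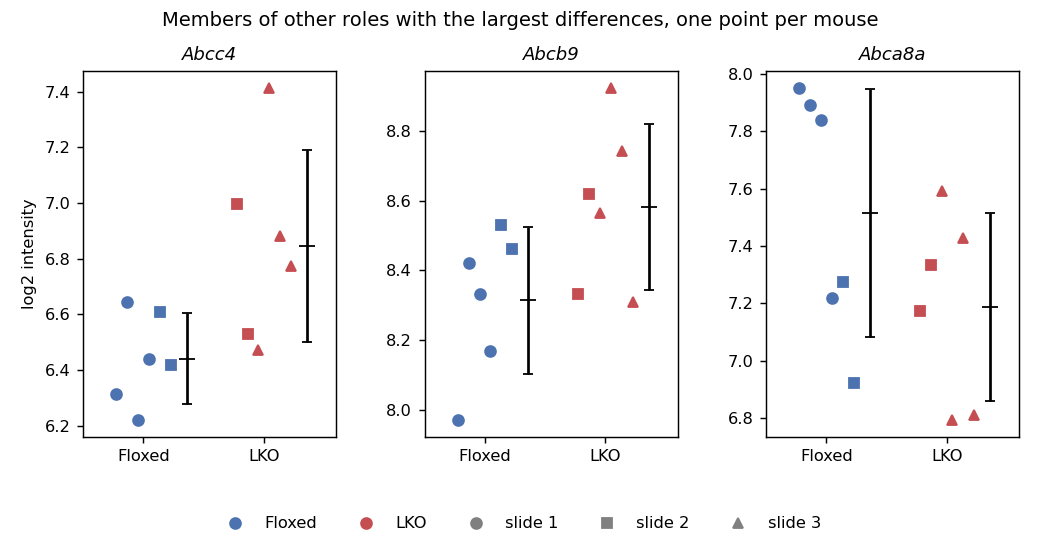
The vertical axis gives the log2 intensity of Abcc4, Abcb9 and Abca8a in 6 Floxed mice (blue) and 6 LKO mice (red), with slides by symbol and group mean and SD beside the points. In Abcc4 4 LKO mice stand above all Floxed mice, and in Abca8a the Floxed mice of slide 1 reach higher than those of slide 2.

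Abcb9 and Abca8a had larger differences than most without being called. Abcb9, a lysosomal peptide carrier related to the antigen peptide transporters, ranged from 7.97 to 8.53 in Floxed mice (median 8.38) and from 8.31 to 8.92 in LKO mice (median 8.59). In 4 of 6 LKO mice it was above every Floxed mouse. The difference was 0.27 ± 0.126 (SE, 95% interval -0.003 to 0.54, adjusted p = 0.600, exact permutation p = 0.0671), -0.02 within slide 2, and it was called under 75th percentile scaling (0.27), with normexp background correction (0.22), with slide as a random block (0.29) and in the table of values that the authors deposited (0.27), as well as when Floxed 5 (0.31), Floxed 6 (0.30), LKO 1 (0.32) or LKO 6 (0.32) was left out. Abca8a, a lipid transporter gene that lies in a cluster with Abca5, Abca6, Abca8b and Abca9, ranged from 6.92 to 7.95 in Floxed mice (median 7.56) and from 6.79 to 7.59 in LKO mice (median 7.25). In 3 Floxed mice, all on slide 1, it was above every LKO mouse. The difference was -0.33 ± 0.202 (SE, 95% interval -0.77 to 0.11, adjusted p = 0.773), it turned to 0.16 within slide 2, and it was called without Floxed 6 (-0.45) and, at -0.33, with the replicate number of the titles as a block. The neighboring gene Abca8b, named outside the rule, had a difference of -0.04 (95% interval -0.28 to 0.21).

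None of the members in the remaining roles was called. The mitochondrial genes Abcb6, Abcb8 and Abcb10, which serve heme metabolism and the inner membrane, had differences from 0.05 to 0.11. Those of the 4 genes of translation and ribosome recycling, Abce1, Abcf1, Abcf2 and Abcf3, lay between -0.15 and 0.04. Abcf2 was called, like no other of them, when Floxed 1 was left out. For the sulfonylurea receptors Abcc8 and Abcc9, which regulate potassium channels, the differences were -0.03 and -0.19. The 5 lysosomal or endosomal genes, with Abcb9 among them, had a median of 0.11, and the 6 tested genes of the remaining Abca group, with Abca8a among them, one of -0.12. A second kept probe was present for 5 members. It had the sign of the brightest probe for Abca2, Abcb8 and Abcc5 and the opposite sign for Abcc6 and Abcf1, and no such probe was called.

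Of the 11 members that were not tested, 7 had no array with a signal well above background: Abca12, Abca13, Abca14, Abca15, Abcb5, Abcg3 and Abcg4. Abca4, the retinal transporter, was well above it on 1 array of an LKO mouse. Abcc12 reached it on 5 arrays, 2 of Floxed and 3 of LKO mice. The ubiquitous glutathione conjugate pump Abcc1 reached it on 10, 5 of each genotype, and Abcd2 on 11. No member of the 11 was well above background in one genotype throughout and in the other nowhere. Without the filter on dim probes no further member was called.

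No gene among those listed as working with these transporters was called, where 8.35% of all tested genes were. A list of 38 partners, all tested, covered nuclear receptors that control transporter genes, uptake carriers, the canalicular flippase and scaffold proteins, lipoprotein genes and peroxisome genes. Of their differences 15 were above 0 and 23 below, which is 39.5% above 0 against 48.8% of all tested genes. Their median was -0.02. The sterol-sensing receptors Nr1h2 and Nr1h3 (LXR beta and alpha) had differences of 0.02 and -0.003. Nr1h4, the bile acid receptor FXR, had one of -0.03, and the bile acid uptake carrier Slc10a1 also one of -0.03. The ends of the list, named for their values, were Nr0b2 (SHP, a repressor under FXR) at 0.50 (95% interval -0.15 to 1.14, adjusted p = 0.754) and the flippase Atp8b1 at -0.31 (95% interval -0.63 to 0.02, adjusted p = 0.637).

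Short motifs in front of the members were also counted, in the 250 bases before each RefSeq start on either strand, for the 28 of 35 tested members with an entry and for 27025 genes in all. TATAAA was found in 14.3% of members and 14.3% of all genes, and CCAAT in 32.1% and 37.5%. The nuclear receptor core motif AGGTCA was found in 14.3% and 15.8%. The GC box GGGCGG was found in 57.1% of members and 35.4% of genes, and the E-box CACGTG in 14.3% and 6.86%, which is 4 of the 28. These shares are descriptions of letters and were not set against the differences between genotypes.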

How the data were processed

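Arrays were grouped by genotype as given in the sample titles. The authors deposited per-spot processed intensity values with background removed and not normalized between arrays (Agilent Feature Extraction, version 9.5.1.1 per the labels and 10.7.1.1 per the file headers), and a table of intensity values quantile-normalized between arrays. The labels name TRIzol with a Promega column for RNA, the methods the RiboPure kit. Control spots (1377 per array) were dropped, leaving 43020 spots, and the log2 of the processed intensity was quantile-normalized over the arrays. Outlier spots (0.298%) were set to missing after normalization, which touched no member. Kept probes (20404) were well above background on all arrays, in place of the detection p-value of the methods. Of 28389 RefSeq probes, 94.3% matched a GRCm38.p6 symbol table. The brightest probe stood for a gene.

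Limma 3.58.1 (R 4.3.3; lmFit, eBayes, no covariates) was fitted over all genes, with Benjamini-Hochberg adjustment over all 16916. Single values of 6 against 6 mice had a two-sided exact permutation test over 924 arrangements (smallest possible p 0.00216), and correlations 100000 shuffles. The number of arrays limits the precision. The code was tested on simulated data. Members, role lists, partners and cell type markers were chosen with earlier results of these data known. Named were the canalicular, sterol and peroxisomal members, called members, and the 3 largest differences each way. Some genes that fit the naming pattern are not reported here. Probe and protein sequences were not used here. Alternatives covered scaling, background, the authors' table, filters, probes, slide, replicate block, test, threshold and single arrays left out, and those for the Abcg5 and Abcg8 relation were chosen after seeing the data.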

Additional observations from a re-analysis of the deposited data

Results flagged for a closer look

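Among the 24 groups of 6 mice formed by the 12 named and tested members in each genotype, 1 group had a sample far from the others, where chance gives about 1 in 20. In LKO mice Abcc2 was 11.16 on the array of LKO 5, against 11.47 in the nearest mouse and 11.52 in the highest, so that the gap made up 0.852 of the whole range. Without LKO 5 the difference between genotypes in Abcc2 was -0.08 in place of -0.13, and it was not called either way.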

How the results depend on the processing

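The count of called members, 1 in the report, was 3 under 75th percentile scaling and under normexp background correction (Abcb1a, Abcb9 and Abcc4), 2 in the authors' table (Abcb9 and Abcc4), 4 with slide as a random block (Abca1, Abcb1a, Abcb9 and Abcc4), 0 with slide as a fixed block alone or with 75th percentile scaling, 0 at an adjusted p below 0.05 and 0 at an absolute difference of at least 1. The share of all tested genes called moved too, to 11.4% with the random block (consensus correlation -0.07) and 1.87% with the fixed block, against 8.53% under 75th percentile scaling, 8.40% with normexp, 8.44% with the replicate block and 8.35% in the authors' table and in the report. The count of called members was 1 with no filter on dim probes, outlier spots kept, the mean of a gene's probes, every probe as its own row and the methods' t-test. In these fits the share of all rows called ran from 7.31% (t-test) to 8.76% (mean of probes). Leaving out each mouse gave 1 to 4, with 2 without Floxed 1, Floxed 5, LKO 1, LKO 2, LKO 4 or LKO 6, 3 without Floxed 2 and 4 without Floxed 6, and Abcc4 was called each time. The share of all tested genes then ran from 6.52%, without Floxed 3, to 10.9%, without LKO 1. With the replicate block, the number in the titles as a block, the count was 2 (Abca8a and Abcc4). The animal numbers in the titles are adjacent for mice of one replicate number and the controls were littermates, but no label states that such a pair shares a litter. The r between mice of one number ran from -0.24 to 0.32, and not every mouse correlated best with its own number. Over all genes, 75th percentile scaling moved the median difference from -0.003 to 0.01 and the calls from 832 higher and 581 lower to 1127 and 316.

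Of 276 tested values of the named members under alternatives, 247 kept direction and side of the threshold, 19 became calls, 2 lost the call and 8 reversed. With slide as a fixed block, and so within slide 2, where no test was run, the reversed differences were Abca8a 0.157, Abcb9 -0.0191, Abcd3 -0.174 and Abcg1 0.0702, and with 75th percentile scaling added they were 0.173, -0.0145, -0.137 and 0.0710. Abcc4 lost its call in these fits, at 0.25 and 0.28. The r of Abcg5 with Abcg8 was 0.74 under 75th percentile scaling, 0.79 in the authors' table and 0.63 to 0.91 with each mouse left out, the ends being without LKO 5 and without LKO 1. The cause of these changes was not tested, apart from the slide block resting on 2 mice of each genotype.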
